A study of Caenorhabditis elegans with 5 samples.

Results

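The genes examined here run cell division in *Caenorhabditis elegans*: cyclins and their kinases, the spindle checkpoint, the kinetochore, condensin, the centrosome, the cytokinesis machinery and the anaphase-promoting complex. They were chosen by symbol, and all 59 chosen symbols matched a row of the deposited table of 25393 genes. RNA from pools of whole staged animals was sequenced by Cel-seq2, in which reverse transcription starts from the poly(A) tail, so that sequence tags come from 3′ ends. All animals were wild-type N2, were synchronized by arrest at the first larval stage, were labelled L4 and 48 h, and were grown on agar seeded with *E. coli* HT115. Plates held 400 µM citrate in the 2 control libraries and 400 µM tamoxifen in the 3 treated libraries. Tamoxifen was added as its citrate salt, so citrate controls for the counter-ion. According to the study, this dose delayed development without arresting it, and tamoxifen animals were collected later than citrate animals for that reason, so the shared time label does not stand for the same growth time, and the later collection and the drug cannot be told apart in these libraries.

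Mitosis begins when cyclin-dependent kinase 1, bound to a B-type cyclin, is switched on, and ends when the anaphase-promoting complex marks cyclin and securin for destruction. In between, centrosomes build the spindle, condensin compacts the chromosomes, kinetochores form along the whole length of the holocentric worm chromosome, and the spindle checkpoint holds anaphase back until microtubules are attached. By the end of larval life most somatic divisions of the worm are complete, while germ cells go on dividing and growing oocytes store mRNAs of mitotic proteins for the first divisions of the embryo. In RNA of whole animals, fewer cells of a type and less RNA per cell cannot be told apart.

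Levels are given in CPM, the tags of a gene scaled to a common library total, without use of gene length. The deposited values gave whole tags in every library, and totals were 18882647 and 9277598 tags in citrate and from 1782371 to 38276144 in tamoxifen. The mitotic genes together had from 12995 tags in the smallest library to 316026 in the largest, and the least covered of them had 11 tags in the smallest. A gene with no tag could have had up to 1.68 CPM in the smallest library and 0.0784 CPM in the largest, limits that cover counting error only. Changes were tested by limma on log2(CPM + 1) over the 8325 genes that reached 5 CPM in 2 or more libraries, and p-values were adjusted over all of them by the Benjamini-Hochberg method. A gene is said to have risen or fallen where the adjusted p was under 0.01 and the change more than 2-fold. All 59 mitotic genes were at the level tested, but *knl-2*, *hcp-1*, *hcp-4* and *mat-3* were under 5 CPM in both citrate libraries and were tested only for their tamoxifen values. Of the citrate libraries, only replicate 2 reached 5 CPM for *icp-1*, *him-10*, *hcp-6*, *spd-5* and *emb-27*, so these too were tested only for their tamoxifen values.

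Mitotic genes were higher in tamoxifen as a group. Their summed level was 2764 and 4843 CPM in citrate and 7358, 8256 and 7291 CPM in tamoxifen replicates 1, 2 and 3. All 3 tamoxifen sums lay above both citrate sums, and the citrate libraries were themselves far apart. The log2 fold change was above 0 for 58 of the 59 genes on the deposited scale, against 60.1% of all genes tested, and for 56 of 58 after median-of-ratios scaling, and its median was 1.09, against 0.24 over all genes tested. Without the 4 genes under 5 CPM in both citrate libraries, 54 of 55 were above 0 on the deposited scale, with a median of 1.09. For 48 of the 59 mitotic genes, and 45 of those 55, the 3 tamoxifen values lay above both citrate values. This pattern was seen in 39.4% of all genes tested. Only *cki-1* had all tamoxifen values below both citrate values, a pattern seen in 20.8% of all genes tested, and for the other 10 the groups overlapped.

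**Figure D1:**
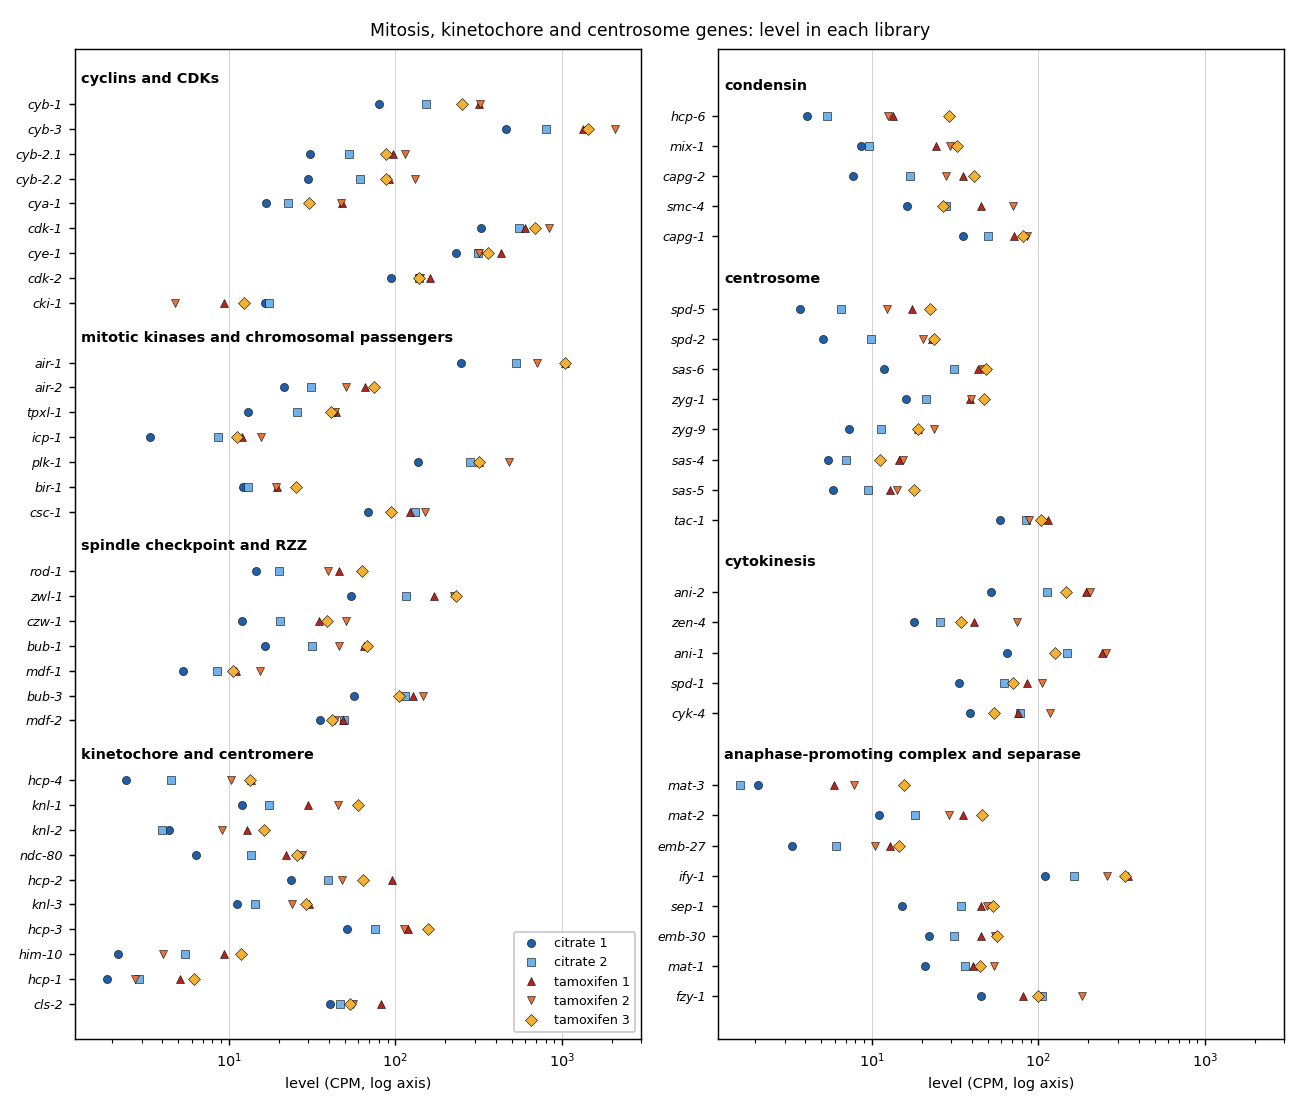
Level of each of the 59 mitotic genes in each library, in CPM on a log axis, ordered within each role by log2 fold change; each symbol is 1 library. Citrate replicate 1 is the leftmost symbol for most genes, the tamoxifen symbols lie to the right of both citrate symbols for 48 genes, and *cki-1* is the gene with both citrate symbols on the right.

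By the limma test, 9 mitotic genes rose and 0 fell, against 4.66% of all genes tested that rose and 2.76% that fell, and 47 mitotic genes were higher at an unadjusted p under 0.05, against 29.7% of all genes tested, and 1 was lower. The 9 were *cyb-1*, *cyb-3*, *air-1*, *rod-1*, *knl-1*, *hcp-4*, *mix-1*, *spd-2* and *ify-1*. Of these, *hcp-4* was tested only for its tamoxifen values. Another 10 genes changed by more than 2-fold with adjusted p-values between 0.01 and 0.015, a range not counted over all genes tested. Among them *hcp-6*, *spd-5* and *mat-3* were tested only for their tamoxifen values. Over all genes tested, 388 were higher at an adjusted p under 0.01 and 1333 at 0.05, with the same fold limit. At an adjusted p under 0.05 with the same fold limit, 35 of the 59 were higher, against 16.0% of all genes tested, and 0 were lower, against 8.14%. Among the 35, *knl-2*, *hcp-4*, *mat-3*, *hcp-6*, *spd-5* and *emb-27* were tested only for their tamoxifen values. Without the 4 genes under 5 CPM in both citrate libraries, 32 of 55 were higher by the same limits. These 32 still include *hcp-6*, *spd-5* and *emb-27*. The 16.0% of all genes also includes genes tested in that way, and no share without them is given. The number that rose depended on the fit. It was 14 with DESeq2 on the recovered tags, where 5.51% of all genes rose, and 7 of the 14 were among the 9. Of the 9, DESeq2 did not call *air-1* (adjusted p = 0.0123 by DESeq2) or *ify-1*, whose log2 fold change there was 0.93. The number that rose was 0 with edgeR's quasi-likelihood test, where 1.78% of all genes rose. At an adjusted p under 0.05 edgeR gave 21 mitotic genes, against 9.53% of all genes. At an unadjusted p under 0.05 it gave 39 higher and 1 lower, against 3530 of all 8325 genes in either direction. The number that rose was also 0 without tamoxifen replicate 1 and without tamoxifen replicate 3, where 0.259% and 0.546% of all genes tested rose. In those fits 42 and 44 mitotic genes were higher at an unadjusted p under 0.05, and 1 was lower in each. Over all genes tested, 3293 of 8095 and 3226 of 8052 were under that limit in either direction. Leaving out a citrate library leaves 1 control, so only the size of the change is given. The median log2 fold change was 0.74 without citrate replicate 1, against 0.23 over all genes tested, and 1.46 without citrate replicate 2, against 0.35. After median-of-ratios scaling, which took the median of all genes tested from 0.24 to 0.06, 0 mitotic genes rose in limma. At an unadjusted p under 0.05, 39 were higher and 1 lower, against 3517 of all 8325 genes in either direction. The mitotic genes then had a median of 0.92. The calls over all genes tested went from 388 higher and 230 lower on the deposited scale to 139 higher and 271 lower. Relative to the median of all genes, the mitotic genes were higher by a median of 0.85 on the deposited scale and 0.86 after that scaling.

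Among cyclins and cyclin-dependent kinases, the B-type cyclins *cyb-1* and *cyb-3* rose. *cyb-1* (chromosome IV, 10735216 to 10737177, WBcel235), a cyclin B needed to align chromosomes, had 80.1 and 154 CPM in citrate and 319, 323 and 251 CPM in tamoxifen. Its tamoxifen mean was 2.54 times its citrate mean, and its log2 fold change was 1.41 (standard error 0.30, adjusted p = 0.00738 by limma). For *cyb-3* (V, 15395696 to 15397353), the cyclin B3 needed for anaphase, 462 and 808 CPM in citrate stood against 1331, 2073 and 1432 CPM in tamoxifen, a change of 1.37 on the log2 scale (standard error 0.27, adjusted p = 0.00539 by limma). In both genes the lowest tamoxifen library was well above the higher citrate library. The near-identical cyclins *cyb-2.1* and *cyb-2.2*, between which tags could have been split or shared, had log2 fold changes of 1.27 and 1.22 and did not pass (adjusted p = 0.0112 and 0.0187 by limma). *cya-1*, which encodes cyclin A, had a log2 fold change of 1.03 (adjusted p = 0.0303 by limma).

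Neither *cdk-1* nor *cdk-2*, the kinases that cyclins activate, passed. *cdk-1*, the kinase that drives entry into mitosis, had 325 and 552 CPM in citrate and 602, 835 and 690.1 CPM in tamoxifen. All tamoxifen values were higher, but tamoxifen replicate 1 exceeded citrate replicate 2 only slightly, and the log2 fold change of 0.73 did not pass (standard error 0.26, adjusted p = 0.0507 by limma). *cdk-2* and *cye-1*, a kinase and its cyclin E that act at the start of DNA synthesis, had log2 fold changes of 0.35 and 0.45 (adjusted p = 0.339 and 0.181 by limma). *cki-1*, which encodes an inhibitor of cyclin-dependent kinases that holds cells in G1, was the exception in direction. It had 16.5 and 17.4 CPM in citrate and 9.39, 4.78 and 12.3 CPM in tamoxifen, with a log2 fold change of -0.95 that did not pass (standard error 0.39, adjusted p = 0.0747 by limma). The citrate libraries were alike for *cki-1*, whereas the tamoxifen libraries spread from 4.78 to 12.3 CPM.

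Aurora and Polo kinases followed the cyclins to different degrees. *air-1* (V, 8221488 to 8223582), the Aurora A kinase of centrosomes and spindle, had 247 and 528 CPM in citrate and 1038, 711 and 1039 CPM in tamoxifen. It rose, with a log2 fold change of 1.34 (standard error 0.30, adjusted p = 0.00916 by limma). Its activator *tpxl-1*, which targets AIR-1 to spindle microtubules, had a log2 fold change of 1.17 with tamoxifen values within 41 to 43.8 CPM (adjusted p = 0.0200 by limma). *plk-1*, the Polo kinase, had 138 and 282 CPM in citrate and 320.0, 479.9 and 319 CPM in tamoxifen. Its citrate libraries differed from each other by more than tamoxifen replicates 1 and 3 differed from citrate replicate 2, and its log2 fold change of 0.89 was under 2-fold and did not pass (adjusted p = 0.0472 by limma).

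The chromosomal passenger complex joins the Aurora B kinase AIR-2 to INCENP, survivin and borealin-like subunits. *air-2* had 21.6 and 31.0 CPM in citrate and 65.5, 50.6 and 74.6 CPM in tamoxifen, a change of 1.24 on the log2 scale (standard error 0.31, adjusted p = 0.0125 by limma). Its tamoxifen values did not overlap those of citrate, and the adjusted p missed the limit of 0.01. *icp-1* (INCENP) and *bir-1* (survivin) had log2 fold changes of 1.09 and 0.71 (adjusted p = 0.0504 and 0.0933 by limma). The fourth subunit, *csc-1*, had 68.8 and 131 CPM in citrate and 122, 151 and 94.3 CPM in tamoxifen, so that its groups overlapped, and its log2 fold change was 0.34 (adjusted p = 0.438 by limma).

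Of the 7 genes of the spindle checkpoint and the Rod-Zwilch-Zw10 complex, 1 rose. *rod-1* (IV, 7478452 to 7485327), a subunit of that complex, which recruits dynein to kinetochores, had 14.6 and 19.9 CPM in citrate and 45.8, 39.2 and 62.8 CPM in tamoxifen. It rose, with a log2 fold change of 1.45 (standard error 0.32, adjusted p = 0.00829 by limma). The other subunits, *czw-1* and *zwl-1*, had similar changes of 1.33 and 1.37 on the log2 scale that did not pass (adjusted p = 0.0123 and 0.0108 by limma). *bub-1*, a kinase that loads checkpoint proteins, had 16.5 and 31.6 CPM in citrate and 65.2, 46.2 and 67.3 CPM in tamoxifen, with a log2 fold change of 1.32 (adjusted p = 0.0139 by limma). The checkpoint genes *mdf-1* (MAD1) and *bub-3* had log2 fold changes of 0.77 and 0.63 (adjusted p = 0.112 and 0.142 by limma). *mdf-2*, the MAD2 inhibitor of anaphase, had 35.2 and 49.6 CPM in citrate and 48.4, 43.3 and 41.5 CPM in tamoxifen. All its tamoxifen values lay between the citrate values, and its log2 fold change of 0.08 (standard error 0.30, adjusted p = 0.85 by limma) turned negative under other scalings, to -0.0972 after median-of-ratios scaling and -0.19 after quantile normalization.

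Of the 10 kinetochore and centromere genes, 2 rose and the median change was 1.08 on the log2 scale. Tamoxifen values lay above both citrate values for 8, as for 39.4% of all genes tested. *hcp-4* (I, 3862833 to 3865938), the CENP-C that links centromeric chromatin to the outer kinetochore, had 2.44 and 4.53 CPM in citrate and 13.7, 10.3 and 13.5 CPM in tamoxifen. Its log2 fold change was 1.62 (standard error 0.37, adjusted p = 0.00955 by limma). *knl-1* (III, 8250632 to 8253943), the scaffold of the outer kinetochore, had 12 and 17.4 CPM in citrate and 29.9, 45.3 and 59.5 CPM in tamoxifen, and its log2 fold change was 1.52 (standard error 0.35, adjusted p = 0.00938 by limma). The tamoxifen libraries varied among themselves for *knl-1*, but the lowest was above both citrate libraries.

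*hcp-3*, the centromeric histone CENP-A, had 51.0 and 75.8 CPM in citrate and 119.3, 112 and 157 CPM in tamoxifen, a log2 fold change of 1.03 that did not pass (adjusted p = 0.0209 by limma). *knl-2*, which loads CENP-A, and *knl-3*, of the Mis12 complex, had log2 fold changes of 1.37 and 1.06 (adjusted p = 0.0163 and 0.0233 by limma). The microtubule-binding Ndc80 complex was represented by *ndc-80* and *him-10*, the worm Nuf2. *ndc-80* had a log2 fold change of 1.33 without overlap of the groups (adjusted p = 0.0157 by limma), whereas for *him-10* tamoxifen replicate 2, at 4.02 CPM, lay below citrate replicate 2, at 5.50 CPM. The CENP-F paralogs *hcp-1* and *hcp-2* had log2 fold changes of 0.71 and 1.1, and *cls-2*, a CLASP that they recruit to kinetochores, had 0.51 (adjusted p = 0.229, 0.0314 and 0.198 by limma).

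The 5 condensin genes had the highest median log2 fold change of the 8 role groups, 1.5, and 1 of them rose. *mix-1* (II, 10824246 to 10841424), an SMC ATPase shared by mitotic and dosage compensation condensins, had 8.58 and 9.70 CPM in citrate and 24.5, 29.5 and 32.5 CPM in tamoxifen. The libraries of each group were close together, and the log2 fold change was 1.55 (standard error 0.31, adjusted p = 0.00604 by limma). *hcp-6*, a subunit of condensin II, had 4.08 and 5.39 CPM in citrate and 13.4, 12.5 and 29.2 CPM in tamoxifen, a change of 1.66 on the log2 scale (standard error 0.40, adjusted p = 0.0109 by limma). Tamoxifen replicate 3, the smallest library, was the highest for *hcp-6*. The partner ATPase *smc-4* had 16.3 and 27.9 CPM in citrate and 45.3, 70.4 and 26.9 CPM in tamoxifen. For *smc-4* tamoxifen replicate 3 lay below citrate replicate 2, and the log2 fold change of 1.02 did not pass (standard error 0.39, adjusted p = 0.0613 by limma). *capg-1* and *capg-2*, the G subunits of condensins I and II, had log2 fold changes of 0.89 and 1.5 (adjusted p = 0.0336 and 0.0108 by limma).

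All 8 centrosome genes had tamoxifen values above both citrate values, as did 39.4% of all genes tested. Citrate replicate 2 was also above citrate replicate 1 for all 8. *spd-2* (I, 8966985 to 8970081), which starts the assembly of pericentriolar material, had 5.08 and 9.92 CPM in citrate and 23.1, 20.2 and 23.6 CPM in tamoxifen. It rose, with a log2 fold change of 1.51 (standard error 0.35, adjusted p = 0.00947 by limma). *spd-5*, the scaffold of the pericentriolar material, had 3.71 and 6.57 CPM in citrate and 17.4, 12.3 and 22.4 CPM in tamoxifen, with a log2 fold change of 1.58 (standard error 0.37, adjusted p = 0.0104 by limma). *zyg-1*, the kinase that licenses centriole duplication, had 16.0 and 21.2 CPM in citrate and 38.7, 39.6 and 47.1 CPM in tamoxifen, a change of 1.13 on the log2 scale (standard error 0.30, adjusted p = 0.0159 by limma). The genes of the centriole that ZYG-1 acts on, *sas-4*, *sas-5* and *sas-6*, had log2 fold changes of 1.02, 0.90 and 1.21. The microtubule-stabilizing pair *zyg-9* and *tac-1* had 1.09 and 0.53, and none of these 5 passed (adjusted p from 0.0266 to 0.168 by limma).

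None of the 5 cytokinesis genes rose in limma, while 4 were higher at an unadjusted p under 0.05, against 29.7% of all genes tested. Neither edgeR nor DESeq2 called any of them. *ani-2*, a short anillin that keeps the openings of the germline syncytium stable, had 51.7 and 113 CPM in citrate and 193, 203 and 148 CPM in tamoxifen. Its log2 fold change was 1.22 (standard error 0.33, adjusted p = 0.0172 by limma). *zen-4*, the kinesin subunit of centralspindlin, had 17.9 and 25.8 CPM in citrate and 41.3, 74.5 and 34.2 CPM in tamoxifen, a log2 fold change of 1.1 (adjusted p = 0.0340 by limma). Its partner *cyk-4*, the GTPase-activating subunit, had 38.7 and 77.5 CPM in citrate and 76.0, 117 and 54.4 CPM in tamoxifen, so that only tamoxifen replicate 2 was above both citrate libraries, and its log2 fold change was 0.51 (adjusted p = 0.296 by limma). *spd-1*, a bundler of the central spindle, and *ani-1*, the anillin of the contractile ring, had 0.90 and 0.996 (adjusted p = 0.050 and 0.0581 by limma).

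Genes of the anaphase-promoting complex and of sister separation numbered 8, with a median change of 1.13 on the log2 scale, and 1 of them rose. *ify-1* (II, 5054135 to 5055179), the securin that restrains separase, had 109.9 and 164 CPM in citrate and 346, 259 and 332 CPM in tamoxifen. Its log2 fold change was 1.2 (standard error 0.27, adjusted p = 0.00927 by limma). Separase itself, *sep-1*, had a log2 fold change of 1.07 (adjusted p = 0.0338 by limma). *mat-3*, the APC8 subunit, had 2.07 and 1.62 CPM in citrate and 5.98, 7.84 and 15.7 CPM in tamoxifen, with a log2 fold change of 1.83 that missed the limit on p (standard error 0.44, adjusted p = 0.0109 by limma). Its tamoxifen values spread by more than those of *ify-1*, and at these low levels the added pseudocount of 1 CPM reduces the fitted change. The subunits *mat-1*, *mat-2*, *emb-27* and *emb-30* had log2 fold changes of 0.72, 1.29, 1.28 and 0.96. *fzy-1*, the CDC20 that activates the complex, had 45.3 and 106 CPM in citrate and 81.4, 184 and 99.9 CPM in tamoxifen. Tamoxifen replicates 1 and 3 were below citrate replicate 2 for *fzy-1*, and the log2 fold change of 0.71 did not pass (standard error 0.39, adjusted p = 0.174 by limma).

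**Figure D2:**
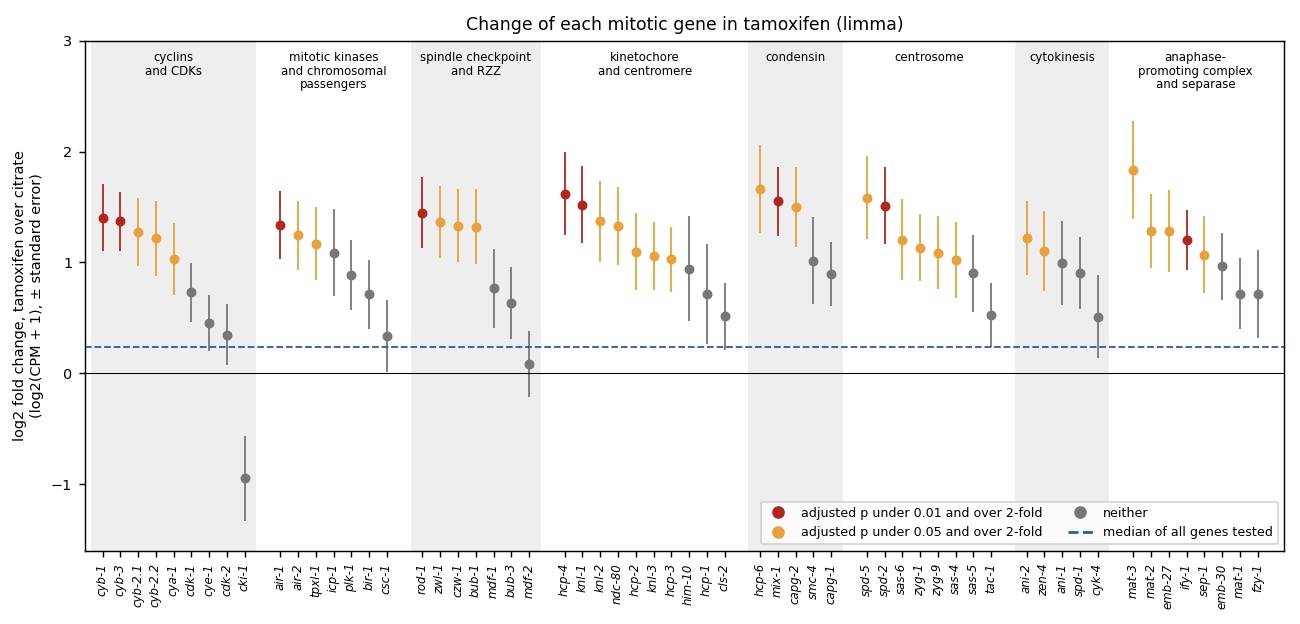
Log2 fold change of each mitotic gene, tamoxifen over citrate on log2(CPM + 1), with its standard error from limma, grouped by role; red marks the 9 genes past an adjusted p of 0.01 and 2-fold, orange those past 0.05 and 2-fold, grey the rest, and the dashed line the median of all genes tested, 0.24. Values run from -0.95 for *cki-1* to 1.83 for *mat-3*, and *cki-1* is the only gene below 0, although *mdf-2*, at 0.08, falls below 0 after median-of-ratios or quantile scaling and with edgeR or DESeq2.

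Levels also differed between the 2 citrate libraries, which received no drug. Citrate replicate 2 was above citrate replicate 1 for 57 of the 59 mitotic genes, against 59.7% of all genes tested, and the median log2 difference was 0.69, against 0.13 over all genes tested. The exceptions were *knl-2* and *mat-3*. This comparison has 1 library on each side and no test, and it shares its libraries with the comparison of tamoxifen and citrate. The sizes of the differences are therefore given side by side. For *cyb-3* the log2 level of citrate replicate 2 exceeded that of citrate replicate 1 by 0.81, and in tamoxifen it was 0.97 above citrate replicate 2 and 1.77 above citrate replicate 1. For *fzy-1* the citrate libraries were 1.21 apart, with replicate 2 the higher, and in tamoxifen it was 0.11 above citrate replicate 2. For *mix-1* the difference between the citrate libraries was 0.16, and tamoxifen was 1.47 above citrate replicate 2. *cki-1* differed by 0.07 between the citrate libraries and was lower in tamoxifen than either, by -0.92 against citrate replicate 1 and -0.98 against citrate replicate 2.

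The distance between the citrate libraries is given here by role, with no test of a difference between roles. Over the 5 cytokinesis genes the median log2 difference between citrate libraries was 0.98, over the 7 kinase and passenger genes 0.93, and over the 5 condensin genes 0.48. With citrate replicate 2 as the only control, the median log2 fold change over the mitotic genes was 0.74, against 0.23 over all genes tested, and 56 of the 59 were above 0. In that fit the lone citrate library is assumed to vary like the tamoxifen libraries, so no count of genes that passed is given. With citrate replicate 1 as the only control, the median was 1.46.

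**Figure D3:**
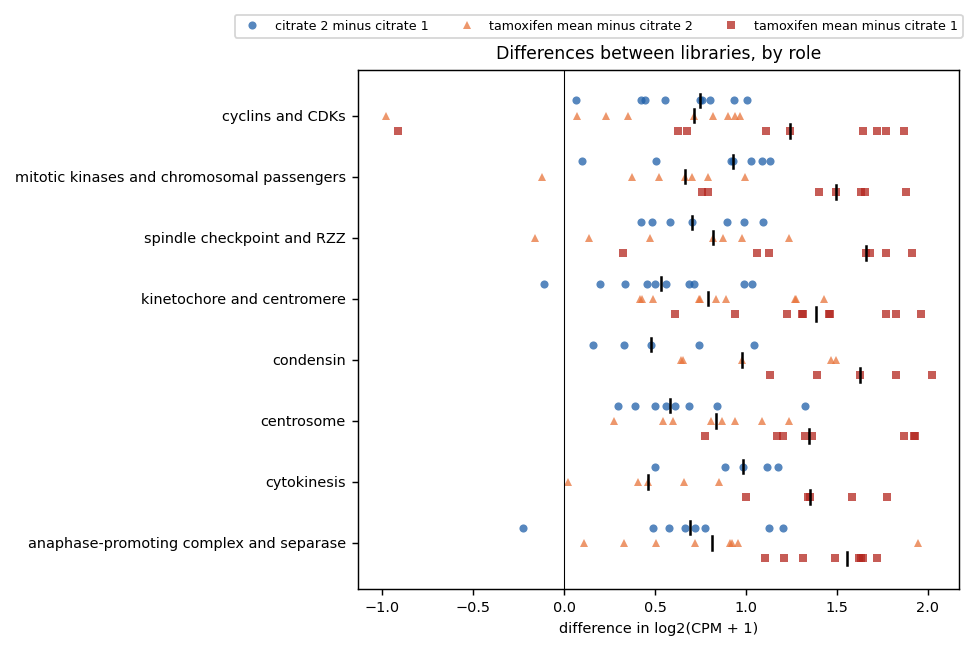
Differences in log2(CPM + 1) between libraries for each mitotic gene, by role: citrate replicate 2 minus citrate replicate 1 (circles), the mean of the 3 tamoxifen libraries minus citrate replicate 2 (triangles) and minus citrate replicate 1 (squares), with black bars at the medians. Circles lie to the right of 0 for 57 of 59 genes, and triangles to the right for 56.

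Germline markers, oocyte markers and yolk genes were also higher in tamoxifen, while the tested sperm markers were lower. All 13 germline markers, such as *glh-1* and *pgl-1*, were above 0, against 60.1% of all genes tested, with a median log2 fold change of 1.2. Of them 3 rose, against 4.66% of all genes tested. Their summed level was 1413 and 2721 CPM in citrate and from 4035 to 4254 CPM in tamoxifen. Of 20 oocyte markers, 15 rose, the median was 1.55, and the sum was 4156 and 7068 CPM in citrate and from 13041 to 13603 CPM in tamoxifen. All 6 yolk genes, which the adult intestine expresses, were higher, with a median of 1.39, and 4 of them rose. Citrate replicate 2 was above citrate replicate 1 for 12 of 13 germline markers, 20 of 20 oocyte markers and 6 of 6 yolk genes. Over all genes tested this share was 59.7%. The part of these tissues in the levels of the mitotic genes was not tested.

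The sum of 12 sperm markers was 534 and 640.5 CPM in citrate and from 213 to 348 CPM in tamoxifen. Of the 5 that were tested 1 fell, against 2.76% of all genes tested. The 4 body muscle markers summed to 2945 and 2558 CPM in citrate and from 1351 to 1809 CPM in tamoxifen, and none of them passed in limma, with 2 lower at an unadjusted p under 0.05. The 4 intestine markers summed to 3072 and 2323 CPM in citrate and from 917 to 1241 CPM in tamoxifen, and most of the sum came from *act-5*, an actin of the gut lining, which fell. The gut esterase gene *ges-1* had 4.5 and 7.87 CPM in citrate and 11.4, 8.26 and 11.2 CPM in tamoxifen, with a log2 fold change of 0.68 that did not pass (adjusted p = 0.167 by limma), and the groups overlapped for *elt-2*. The 4 neuron markers summed to 327 and 348 CPM in citrate and from 368 to 417 CPM in tamoxifen, most of it from *snb-1*. Of these 4, 2 were above 0 and 2 below, among them *unc-64* with a log2 fold change of -0.89 that did not pass (adjusted p = 0.0756 by limma). The 5 hypodermis markers summed to 726 and 898 CPM in citrate and from 746 to 1092 CPM in tamoxifen. The 8 genes chosen as markers of embryos summed to 14.3 and 13.3 CPM in citrate and from 8.41 to 20.2 CPM in tamoxifen. Most of that came from *elt-7*, with 7.52 and 8.62 CPM in citrate and 5.41, 4.23 and 7.85 CPM in tamoxifen, and from *pha-4*, which also mark larval gut and pharynx. *pes-10*, *tbx-37* and *tbx-38* had 0 tags in both citrate libraries. In tamoxifen replicates 1, 2 and 3, *pes-10* had 0, 1.2 and 0.561 CPM. *tbx-37* and *tbx-38* had tags only in tamoxifen replicate 2, the largest library. *end-1* had 0.106 and 0 CPM in citrate and 0, 0.209 and 2.81 CPM in tamoxifen, the highest in the smallest library. *hlh-1* was lower in every tamoxifen library than in either citrate library, and *end-3* was highest in citrate replicate 2. These low levels were not tested.

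**Figure D4:**
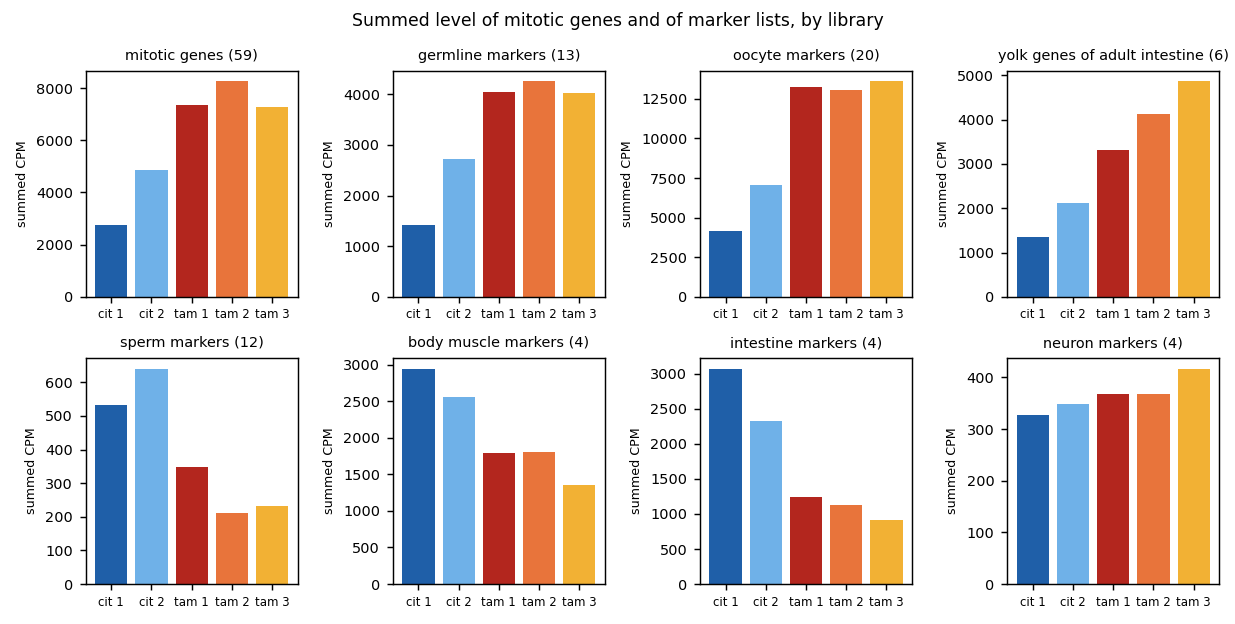
Summed level, in CPM, of the 59 mitotic genes and of 7 marker lists in each library, with the number of genes in the table in brackets; bars are single libraries and axes start at 0. Mitotic, germline, oocyte and yolk sums are lowest in citrate replicate 1 and higher in all 3 tamoxifen libraries than in either citrate library, while sperm, muscle and intestine sums are lower in tamoxifen.

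Further genes of the same pathways were taken from a list of 77 names, of which 75 matched the table and 66 were at the level tested. Of the 66, 9 rose and 0 fell, against 4.66% and 2.76% of all genes tested, and 62 were above 0, against 60.1%. Their median log2 fold change was 0.86, against 0.24 over all genes tested. Regulators that act on CDK-1 were among them. *wee-1.3*, an inhibitory kinase that keeps CDK-1 off in oocytes, had 49.9 and 112 CPM in citrate and 274, 221 and 192 CPM in tamoxifen (adjusted p = 0.00676 by limma). *cdc-25.2*, a phosphatase that removes the inhibitory mark, had 8.42 and 10.3 CPM in citrate and 32.5, 28.5 and 29.2 CPM in tamoxifen (adjusted p = 0.00512 by limma). An inhibitor and an activator of the same kinase both rose.

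The other genes of this list that rose belonged to several structures. *gip-2*, of the gamma-tubulin complex, had the largest log2 fold change of the list, 2.23, and *scc-3*, a cohesin subunit, had 1.83. *cpar-1*, the second CENP-A gene, had 1.53 and *spdl-1*, the Spindly adaptor of dynein, had 1.58. *nmy-2*, the non-muscle myosin of the contractile ring, had 1.44, *dpl-1*, the DP partner of E2F, 1.56, and *cdc-25.3* 1.66. The 4 tested genes below 0 were *fzr-1*, *lis-1*, *rho-1* and *mlc-4*, with log2 fold changes from -0.32 to -0.03. *cdk-4*, the G1 kinase, had 19.4 and 11.1 CPM in citrate and 17.6, 19 and 16.3 CPM in tamoxifen, while its partner cyclin D, *cyd-1*, had a log2 fold change of 1.64 (adjusted p = 0.0163 by limma).

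Of the 59 mitotic genes, 20 share bases with a further coding gene of the Ensembl annotation, 1 of them, *sas-6*, on the same strand. *hcp-6* and *spd-5* overlap each other on opposite strands. Whether the counting used strand is not given in the sources used here, so tags of such genes and of their partners cannot be told apart. Of the 9 genes that rose, *mix-1* and *spd-2* overlap another coding gene.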

How the data were processed

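Groups of the 5 libraries come from their labels. The deposited table, whose values the authors name TPM, has the same total in each library and no use of gene length, and was read as CPM. The labels' processing notes name Trimmomatic 0.32 and STAR, and the methods a DolphinNext pipeline. The genome build, the use of strand and the collapsing of molecular identifiers are not given in the sources used here. In each library 100% of values were whole multiples of the smallest, within 0.01, which gave whole tags. Gene positions are those of Ensembl WBcel235, matched by gene ID.

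The main test was limma 3.58.1 (R 4.3.3) on log2(CPM + 1) with a mean-variance trend, all 5 libraries and no covariates. It was also run on simulated tags, in which the citrate libraries shared the same expected levels. The citrate libraries here were far apart, so that run does not measure the error of the test in these data. Alternatives were pseudocounts of 0.1 and 5, filters, scalings, no trend, looser limits, leaving out each library, a replicate block, edgeR 4.0.16 and DESeq2 1.42.0 on recovered tags, and thinning. Values in every library are given for genes that rose, the largest change in each role, genes changing against the rest, and 14 central genes chosen by name. *csc-1*, *mdf-2*, *cyk-4*, *him-10* and *tpxl-1* and the non-members were named after their values were seen. The genes, lists and tests were chosen with earlier results of these data known. An exact one-sided permutation test of 1 gene cannot go below p = 0.1 in this design. The methods describe the replicates as biological.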

Additional observations from a re-analysis of the deposited data

How the results depend on the processing

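Of the 59 genes, 9 rose and 0 fell in limma. The number that rose was 4 with a pseudocount of 0.1 and after quantile normalization, 14 with DESeq2, 35 and 37 at adjusted p limits of 0.05 and 0.1, and 0 after median-of-ratios scaling, with no filter, with no trend and with edgeR, where 39, 43, 46 and 39 genes were higher at an unadjusted p under 0.05. Of 8325 genes tested, 298 rose with that pseudocount, 221 after quantile normalization and 459 with DESeq2. At adjusted p limits of 0.05 and 0.1, 1333 and 1414 rose. After median-of-ratios scaling, with no trend and with edgeR, 139, 31 and 148 rose. With no filter 0 of 20671 rose, so the 0 there does not set mitotic genes apart. At an unadjusted p under 0.05 in either direction, no filter gave 4742 of 20671. Median-of-ratios scaling, no trend and edgeR gave 3517, 3604 and 3530 of 8325. Leaving out 1 library gave medians from 0.74 to 1.46, the lowest without citrate replicate 1 and the highest without citrate replicate 2. The number that rose was 0 without tamoxifen replicate 1 or 3 and 6 without tamoxifen replicate 2, and 0 fell in each. Of all genes tested, 0.259%, 0.546% and 3.58% rose in those fits. At an unadjusted p under 0.05, 42, 44 and 43 mitotic genes were higher. Over all genes tested, 3293 of 8095, 3226 of 8052 and 3333 of 8208 were under that limit in either direction. The cause of these changes was not tested. The median log2 fold change stayed above 0 in every alternative, although no filter, no trend and the looser limits could not move it. Elsewhere the median moved by less than the spread between libraries, a pooled SD of 0.36 log2, except without citrate replicate 2. That SD includes the gap between the citrate libraries, so it cannot judge the fits that leave 1 of them out. A pseudocount of 5, a filter of 20 CPM, thinning, and leaving out genes under 5 CPM in both citrate libraries (chosen after seeing the data) left 11, 10, 6 and 8 genes that rose. Of all genes tested, 4.96%, 7.83% and 3.76% rose with the pseudocount of 5, the filter and thinning.

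With the replicate block, 34 genes rose and 1, *cki-1*, fell, as did 12.5% and 7.20% of all genes tested. The numbers are not known to pair the libraries: the deviations of libraries with the same number correlated by 0.12 (number 1) and 0.32 (number 2) over genes, and there are only 2 pairs. Citrate replicate 1 and tamoxifen replicate 3, with different numbers, correlated by 0.21. With 2 citrate libraries, each value has an equal and opposite one with the other citrate library, so these values cannot show pairing.

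Over the 18 alternatives, 57 of the 59 genes kept their direction wherever tested. The changed filters, no trend and the looser limits leave the fitted change of a gene as it is, so they could not reverse it. *mdf-2* was at -0.0972 after median-of-ratios scaling, -0.19 after quantile normalization and with DESeq2, -0.16 with edgeR and -0.16 without citrate replicate 1, where *csc-1* was at -0.12, against 0.79 without citrate replicate 2. Depth limits the lowest genes: 5 CPM is 8.91 tags in tamoxifen replicate 3.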
